A study of Homo sapiens with 6 samples.

Results

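The 10 genes described here encode amino acid transporters of the plasma membrane and were chosen by symbol from the deposited expression table, in which all 10 are present among 24846 genes. They are SLC1A4, SLC1A5, SLC3A2, SLC6A9, SLC7A1, SLC7A5, SLC7A11, SLC38A1, SLC38A2 and SLC43A1. Their mRNA was measured by poly(A) RNA-seq in A549, a human lung adenocarcinoma cell line whose genotype the labels give as WT. The ACC group was 3 cultures kept for 8 passages in calcium-depleted DMEM/F12 to which amorphous calcium carbonate (ACC) had been added at 2 mM elemental calcium. The control group was 3 cultures kept for 8 passages in complete DMEM/F12, whose calcium is calcium chloride. Serum, glutamine and antibiotics were added to both media. The source and the amount of calcium therefore differed together between the groups. So did the carbonate of ACC and the sodium tripolyphosphate that the paper gives as its stabilizer. All 6 libraries come from 1 cell line, and it is not stated whether the triplicates were passaged apart, so the tests rest on the spread between these libraries, which may be technical.

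Cells take up amino acids through carriers that differ in substrate and in driving force. Sodium-coupled carriers such as SLC38A1 and SLC38A2 accumulate glutamine and other neutral amino acids, and exchangers such as SLC1A5 and SLC7A5 trade one amino acid for another. SLC7A5 and SLC7A11 are light chains that reach the cell surface bound to the heavy chain SLC3A2. SLC7A11 brings in cystine in exchange for glutamate and so supplies cysteine for glutathione. Several of these genes are known targets of ATF4, the transcription factor induced by amino acid shortage and other stresses, and of MYC or NRF2, and A549 carries a KEAP1 mutation that keeps NRF2 active.

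Libraries held 21771645 to 24805486 reads in genes, and the 10 transporters took 0.430%, 0.428% and 0.439% of these reads in the ACC libraries, against 0.407%, 0.395% and 0.456% in the control libraries. All 10 transporters passed the filter on low values, a sum of at least 10 normalized counts over the 6 libraries, as did 19318 genes in all. Summed levels of 6 epithelial markers lay between 165587 and 172026 normalized counts with ACC and between 216435 and 221583 in control. The sum does not describe each marker, since EPCAM was higher with ACC (405 ± 18.4 normalized counts, against 264 ± 21.4 in control, SD). The alveolar markers NKX2-1 (0 in every library), SFTPA1 and LAMP3 summed to at most 11.2 with ACC and 8.55 in control. Markers of leukocytes summed to 2.8 to 5.11 with ACC and 1.9 to 4.81 in control, those of endothelium to 8.66 to 14.3 with ACC and 1.92 to 4.45 in control, and those of fibroblasts to 7.71 to 14.3 with ACC and 29.4 to 43.6 in control. The part of these marker differences in the results on transporters was not tested. In bulk RNA, a change in the number of cells that express a gene and a change in RNA per cell cannot be told apart.

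The promoter windows shown here each held a short motif tied to the regulators named above, but not every window with such a motif is shown. RefSeq windows of GRCh38.p14, from 250 bases before to 50 bases after an annotated start, were found for 9 of the 10 transporters, SLC7A11 being the exception, and a gene can have several. The motif TGATGNAA, searched on both strands, is the core of the element bound by ATF4 with C/EBP partners. It was found in windows of 5 of the 9 transporters (5 of 16 windows), and in 3.62% of all 35116 windows or 4.46% of 27305 genes. Capitals mark it, and sequences are written 5′ to 3′ along the gene. TTNCATCA is the same motif on the other strand.
SLC1A4, chr2:64989149-64989448, plus strand: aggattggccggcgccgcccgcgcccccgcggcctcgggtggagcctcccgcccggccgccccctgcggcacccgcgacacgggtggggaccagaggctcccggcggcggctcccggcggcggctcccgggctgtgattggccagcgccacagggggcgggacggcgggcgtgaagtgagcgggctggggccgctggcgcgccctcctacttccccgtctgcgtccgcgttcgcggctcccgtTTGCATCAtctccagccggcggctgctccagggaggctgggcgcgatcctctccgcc
SLC1A5, chr19:46784765-46785064, minus strand: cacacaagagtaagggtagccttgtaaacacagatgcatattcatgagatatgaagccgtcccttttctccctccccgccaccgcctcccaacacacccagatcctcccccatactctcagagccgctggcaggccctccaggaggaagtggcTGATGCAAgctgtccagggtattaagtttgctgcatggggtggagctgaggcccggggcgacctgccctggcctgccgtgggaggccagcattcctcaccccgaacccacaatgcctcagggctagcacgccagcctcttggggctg
SLC3A2, chr11:62881449-62881748, plus strand: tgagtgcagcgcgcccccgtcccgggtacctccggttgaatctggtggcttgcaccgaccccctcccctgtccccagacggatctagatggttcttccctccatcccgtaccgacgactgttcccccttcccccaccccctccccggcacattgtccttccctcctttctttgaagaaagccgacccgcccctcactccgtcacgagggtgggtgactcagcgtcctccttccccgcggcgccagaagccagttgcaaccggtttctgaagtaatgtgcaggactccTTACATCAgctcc
SLC7A1, chr13:29595639-29595938, minus strand: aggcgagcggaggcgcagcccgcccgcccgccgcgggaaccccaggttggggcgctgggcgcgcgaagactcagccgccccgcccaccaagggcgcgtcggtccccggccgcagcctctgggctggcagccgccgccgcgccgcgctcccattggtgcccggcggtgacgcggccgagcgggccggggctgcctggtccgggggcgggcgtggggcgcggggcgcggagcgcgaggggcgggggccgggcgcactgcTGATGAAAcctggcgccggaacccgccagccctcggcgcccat
SLC38A1, chr12:46266467-46266766, minus strand: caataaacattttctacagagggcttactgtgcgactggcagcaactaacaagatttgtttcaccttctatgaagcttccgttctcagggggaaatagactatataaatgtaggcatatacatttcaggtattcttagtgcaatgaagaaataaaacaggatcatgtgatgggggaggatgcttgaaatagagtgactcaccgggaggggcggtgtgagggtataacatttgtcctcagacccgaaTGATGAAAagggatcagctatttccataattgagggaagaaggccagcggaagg
Counted with the start base as 0, the motif lay from -7 to 0 in SLC1A4, -97 to -90 in SLC1A5, 37 to 44 in SLC3A2, 7 to 14 in SLC7A1 and -4 to 3 in SLC38A1. The SLC7A1 window is at the outer start of the annotated gene. The windows of SLC1A4, SLC1A5, SLC3A2 and SLC38A1 belong to starts inside the outer bounds of the gene. Which start of a gene is the main one in these cells was not examined. The E-box CACGTG, the sequence preferred by MYC and related factors and identical on both strands, was found in windows of 3 of the 9 transporters (SLC1A5, SLC7A5 and SLC43A1) and in 7.26% of all windows or 8.77% of genes. It is shown in capitals for SLC7A5, the transporter that fell with ACC, and for SLC43A1, the transporter with the largest fold change. The SLC1A5 window that held it is not shown.
SLC7A5, chr16:87869458-87869757, minus strand: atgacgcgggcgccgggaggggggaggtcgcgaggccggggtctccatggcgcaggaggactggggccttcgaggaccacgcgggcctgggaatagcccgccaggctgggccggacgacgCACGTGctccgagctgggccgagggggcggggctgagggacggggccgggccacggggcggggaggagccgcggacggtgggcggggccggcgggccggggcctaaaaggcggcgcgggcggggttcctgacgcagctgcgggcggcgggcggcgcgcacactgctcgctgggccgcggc
SLC43A1, chr11:57515653-57515952, minus strand: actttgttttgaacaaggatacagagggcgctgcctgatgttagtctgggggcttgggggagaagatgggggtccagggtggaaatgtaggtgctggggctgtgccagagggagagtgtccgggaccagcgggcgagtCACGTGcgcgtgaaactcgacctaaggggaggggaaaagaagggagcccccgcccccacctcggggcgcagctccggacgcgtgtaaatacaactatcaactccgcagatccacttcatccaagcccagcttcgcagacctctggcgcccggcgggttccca
The E-box lay from -130 to -125 in SLC7A5 and from -112 to -107 in SLC43A1. The SLC7A5 window is at the annotated gene start and that of SLC43A1 at a start just inside the gene. These were 2 of 8 motif spellings searched, and they were chosen for display after the matches were seen. Of the other 6, ATTGCATCA and TGATGNNAT were found in 0 of the 9 transporters, against 0.293% and 4.10% of genes. TGATGCAA, which is contained in TGATGNAA, was found in 2 (SLC1A4 and SLC1A5), against 1.08% of genes, and TGATGAAAC, which also overlaps it, in SLC7A1 alone, against 0.282%. TGANNNNGC, a separate pattern and not a form of TGATGNAA, was found in 5 of the 9 transporters, against 47.1% of genes. TGACNNNGC, a narrower spelling of TGANNNNGC, was found in 4, against 16.1%. The matches are letters in a window and not measured binding.

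Most of the transporter genes, which were chosen with earlier results of these data known, were higher with ACC. Of the 10, 8 rose and SLC7A5 fell when limma p-values, adjusted by Benjamini-Hochberg over 19318 genes, were held to 0.05, and SLC3A2 did not pass. Over all genes tested, 43.3% passed, 21.3% higher and 21.9% lower. Among the 9906 genes whose mean reached 200 normalized counts, a level that 9 of the transporters reach, 28.9% passed higher and 31.8% lower. The median log2 fold change was 0.51 over the 10 transporters and 0.00 over all genes tested. The groups did not overlap for 8 transporters that were higher with ACC and 1 that was lower, against 25.5% and 25.9% of all genes. At the study's thresholds, which add a fold change of at least 2 and 30 reads in 1 library, SLC43A1 was the single transporter called, as were 2.77% of all genes in that direction and 2.24% in the other.

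**Figure D1:**
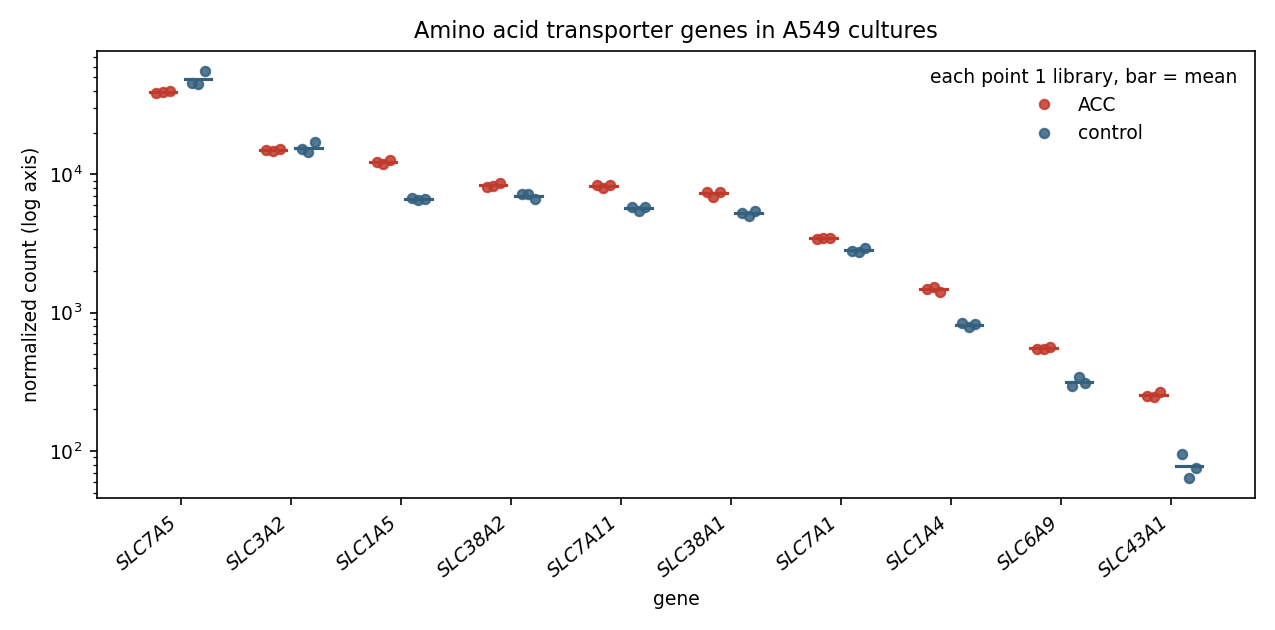
Normalized counts (log axis) of the 10 transporter genes in each library, with ACC on the left and control on the right of each gene, points for libraries and bars for means. SLC7A5 is lower in all 3 ACC libraries (38607.5 to 39742.7) than in control (44590.8 to 55612), SLC3A2 overlaps, and the other 8 are higher with ACC.

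The SLC1 family members are sodium-dependent neutral amino acid exchangers. SLC1A5 (ASCT2, a glutamine carrier), on chromosome 19 of GRCh38 from 46774883 to 46788594 on the minus strand, had 12220.7, 11887.2 and 12619.1 normalized counts in the ACC libraries, against 6683.5, 6555.9 and 6629.5 in control. All ACC libraries were above all control libraries, and the controls differed little among themselves. The log2 fold change was 0.89 ± 0.034 (SE, limma adjusted p = 3.09e-13), or 1.85-fold. SLC1A4 (ASCT1, which carries alanine, serine and cysteine), on chromosome 2 from 64988477 to 65023865 on the plus strand, had 1487.9, 1523.7 and 1419.9 normalized counts with ACC, against 844.2, 785.9 and 822.4 in control. It also separated the groups, with a log2 fold change of 0.85 ± 0.048 (SE, limma adjusted p = 7.73e-11). The ratio of SLC1A5 to SLC1A4 counts within a library was 8.21, 7.80 and 8.89 with ACC and 7.92, 8.34 and 8.06 in control. These ratios overlapped, and the log2 difference was 0.03 (two-sided exact permutation p = 0.7, n = 3 each).

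The heteromeric transporters changed in both directions. SLC7A5 (LAT1), the main exchanger for leucine and other large neutral amino acids in many tumors, lies on chromosome 16 from 87830023 to 87869507 on the minus strand. It had 38607.5, 39508.3 and 39742.7 normalized counts with ACC, against 45371, 44590.8 and 55612 in control. All 3 ACC libraries were below the controls, and control replicate 3 stood above the other control libraries. SLC7A5 fell by 0.30 on the log2 scale (standard error 0.058, limma adjusted p = 0.000387), to 0.814 of the control level. Without control replicate 3 the log2 fold change was -0.20 (limma adjusted p = 1.37e-05). The pseudogene SLC7A5P1, which could share reads with it, averaged 11.7 normalized counts with ACC and 12.1 in control.

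SLC3A2 (4F2hc or CD98), the heavy chain that carries these light chains to the membrane, lies on chromosome 11 from 62856004 to 62888880 on the plus strand. It had 14928.2, 14638.9 and 15103.9 normalized counts with ACC, against 15142.3, 14394.8 and 17128.7 in control. The groups overlapped, and control replicate 3 was again the highest, the cause of which was not tested. The log2 fold change was -0.06 (95% interval -0.16 to 0.04, limma adjusted p = 0.348), and 0.01 without control replicate 3 (limma adjusted p = 0.809).

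SLC7A11 (xCT), the cystine-glutamate exchanger on chromosome 4 from 138164097 to 138242349 on the minus strand, had 8409.3, 7900.7 and 8394.3 normalized counts with ACC, against 5754.5, 5448.2 and 5799.5 in control. The groups did not overlap. The log2 fold change was 0.54 ± 0.038 (SE, limma adjusted p = 1.39e-09), or 1.45-fold. SLC7A11-AS1, an overlapping gene on the other strand, averaged 14.3 normalized counts with ACC and 9.04 in control, and the methods do not say whether reads were counted by strand.

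Ratios within a library do not depend on its scaling. The ratio of SLC7A5 to SLC3A2 normalized counts was 2.59, 2.70 and 2.63 with ACC, against 3.00, 3.10 and 3.25 in control. That of SLC7A11 to SLC3A2 was 0.563, 0.540 and 0.556 with ACC, against 0.380, 0.378 and 0.339 in control. That of SLC7A11 to SLC7A5 was 0.218, 0.200 and 0.211 with ACC, against 0.127, 0.122 and 0.104 in control. Each of these ratios separated the groups, relative to the heavy chain SLC7A5 being lower and SLC7A11 higher with ACC. The log2 differences were -0.24, 0.60 and 0.84, each with a two-sided exact permutation p = 0.1 (n = 3 each), the smallest that 3 against 3 libraries can give (adjusted p = 0.125 over 5 ratios).

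The make-up of the light chains that can pair with SLC3A2 was also compared per kilobase of canonical transcript, over SLC7A5, SLC7A6, SLC7A7, SLC7A8, SLC7A10 and SLC7A11. SLC7A5 made up 83.2% ± 0.414 of their summed level with ACC and 91.9% ± 1.08 in the controls (3 libraries a group, ± SD). SLC7A11 made up 8.24% ± 0.314 with ACC and 5.11% ± 0.460 in control. SLC7A7 (y+LAT1), which exports cationic in exchange for neutral amino acids, made up 7.85% ± 0.142 with ACC and 2.29% ± 0.579 in control. For these light chains the shares did not overlap between the groups, and in control replicate 3 SLC7A5 had its highest share (93.2%) and SLC7A7 its lowest (1.62%). SLC7A7 is not among the 10 transporters and had 1695.6, 1659.5 and 1725.7 normalized counts with ACC, against 597.5, 583.2 and 441.6 in control (log2 fold change 1.66 ± 0.082 SE, limma adjusted p = 1.03e-11).

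**Figure D2:**
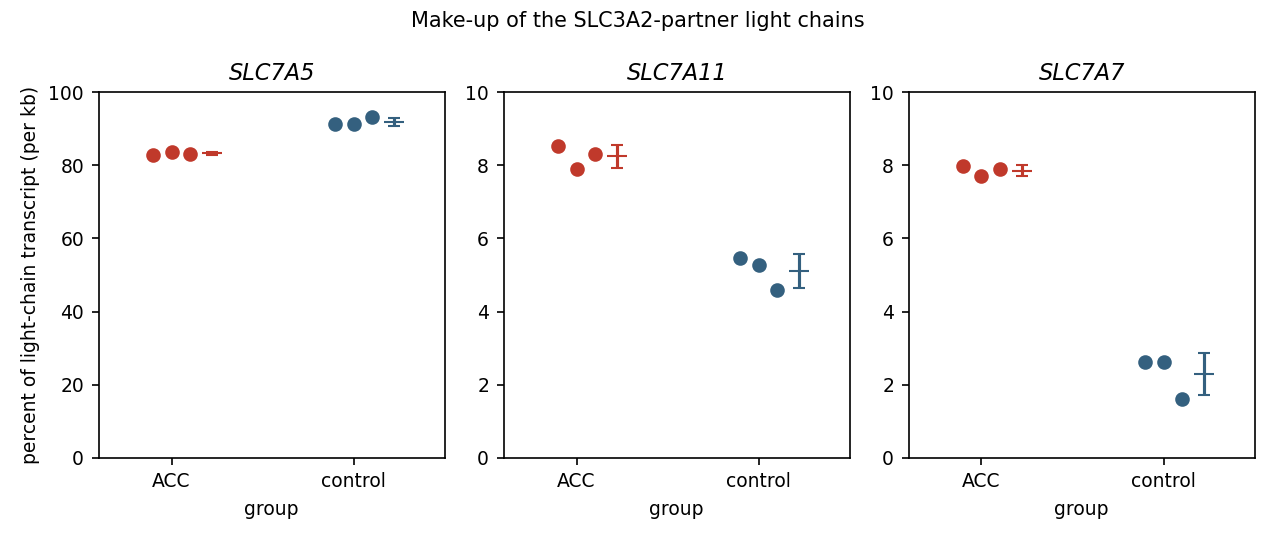
Share of the summed light-chain level per kilobase (percent) taken by SLC7A5, SLC7A11 and SLC7A7 in each library, ACC left of control, with the mean and SD beside the points; the SLC7A5 axis runs to 100% and the other axes to 10%. SLC7A5 takes 82.9% to 83.7% with ACC and 91.2% to 93.2% in control.

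The other transporters that rose do not use SLC3A2. SLC7A1 (CAT-1), a uniporter for arginine and lysine on chromosome 13 from 29509414 to 29595688 on the minus strand, had 3382, 3442.3 and 3486.2 normalized counts with ACC, against 2806.4, 2762.3 and 2924 in control. The groups did not overlap, though the change was small, with a log2 fold change of 0.28 ± 0.038 (SE, limma adjusted p = 6.65e-06).

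SLC38A1 (SNAT1) and SLC38A2 (SNAT2) are sodium-coupled carriers of glutamine and other small neutral amino acids, and SLC38A2 is known to be induced when amino acids run short. Both lie on chromosome 12, SLC38A1 from 46183063 to 46270017 and SLC38A2 from 46358188 to 46372773, both on the minus strand. SLC38A1 had 7416.1, 6891.3 and 7494.1 normalized counts with ACC, against 5257.2, 4999.2 and 5396.8 in control (log2 fold change 0.48 ± 0.040 SE, limma adjusted p = 1.85e-08). SLC38A2 had 8064.5, 8245.5 and 8625.5 with ACC, against 7154.8, 7218.3 and 6667.4 in control (log2 fold change 0.25 ± 0.039 SE, limma adjusted p = 4.2e-05). Both separated the groups, and SLC38A2 had the smallest fold change of the 8 that rose. The ratio of SLC38A2 to SLC38A1 was 1.09, 1.20 and 1.15 with ACC, against 1.36, 1.44 and 1.24 in control (log2 difference -0.23, two-sided exact permutation p = 0.1, n = 3 each).

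SLC6A9 (GlyT1), a sodium- and chloride-coupled glycine transporter on chromosome 1 from 43991500 to 44031467 on the minus strand, had 549.7, 550.9 and 560.6 normalized counts with ACC, against 294.9, 340.5 and 310.5 in control. The ACC libraries lay close together and above all controls (log2 fold change 0.81 ± 0.067 SE, limma adjusted p = 1.37e-08). SLC6A9 overlaps CCDC24 on the other strand, which averaged 168 normalized counts with ACC and 177 in control. SLC43A1 (LAT3), a sodium-independent carrier of branched-chain amino acids and phenylalanine on chromosome 11 from 57484534 to 57515780 on the minus strand, had 248.8, 247.5 and 266 normalized counts with ACC, against 95.4, 64 and 75 in control. It was the lowest expressed of the 10 and had the largest fold change among them, 3.26-fold (log2 fold change 1.71 ± 0.126 SE, limma adjusted p = 3.11e-09).

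**Figure D3:**
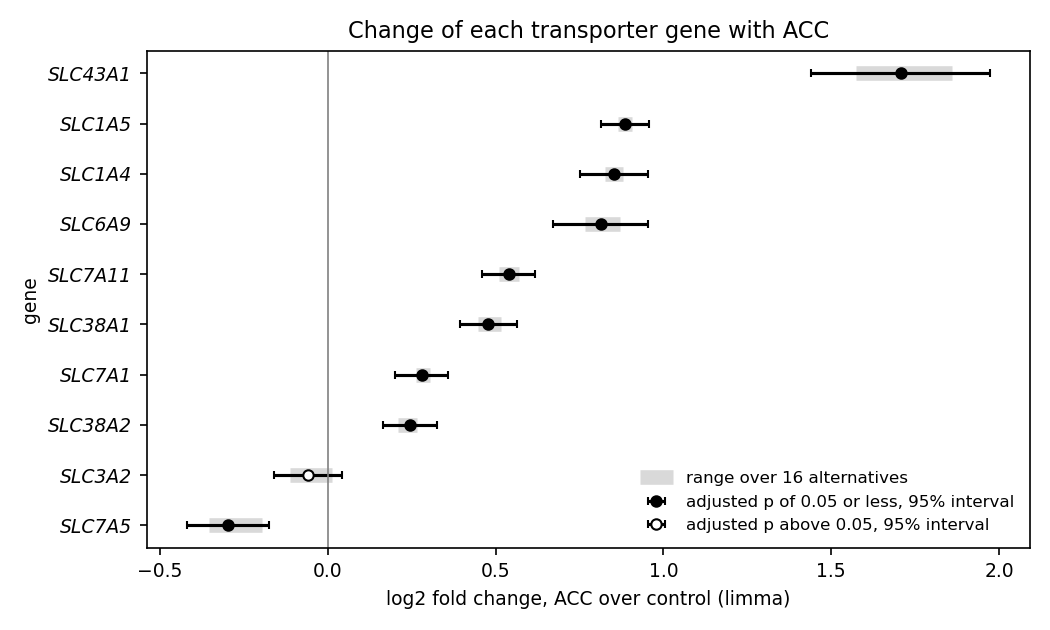
Log2 fold change, ACC over control, of each transporter gene from limma with its 95% interval (filled where the adjusted p is 0.05 or less). The grey bar behind is the range across 16 alternatives, which are other ways of processing and fits that each leave out a library. SLC43A1 stands at 1.71, SLC7A5 at -0.30, and for SLC3A2 alone the interval and the grey bar include 0.

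Per kilobase of canonical transcript, though not over the union of exons, the order of the mean levels was the same with ACC and in control. With ACC it was SLC7A5 (8623 ± 132 normalized counts per kilobase, SD, n = 3), SLC3A2 (7899 ± 125), SLC1A5 (4248 ± 127), SLC38A2 (1733 ± 59.7), SLC38A1 (898 ± 40.5), SLC7A11 (854 ± 30.01), SLC7A1 (468 ± 7.13), SLC1A4 (324 ± 11.6), SLC6A9 (173 ± 1.86) and SLC43A1 (101 ± 4.10). In control SLC7A5 had 10651 ± 1350, SLC3A2 8252 ± 750 and SLC1A5 2298 ± 22.2 normalized counts per kilobase. Of all neighbours in this order, SLC38A1 and SLC7A11 overlapped in range with ACC, and none did in control. The summed level per kilobase of the 10 was 25320 ± 400.0 with ACC and 24590 ± 2078 in control, ranges that overlapped. Without SLC7A5 and SLC3A2, the summed level of the other 8 was 8798 ± 228 with ACC and 5687 ± 59.3 in control, which did not overlap. SLC7A5 accounted for 34.1% ± 0.521 of the summed level with ACC and 43.2% ± 1.80 in control, and SLC1A5 for 16.8% ± 0.262 with ACC and 9.39% ± 0.741 in control. The order rests on transcript length. With the union of all annotated exons, which is 6392 bases for SLC3A2 in place of 1885, 6 of the 10 kept their rank with ACC, and the order was no longer the same in both groups. SLC1A5 then stood above SLC3A2 with ACC (3674 against 2330 normalized counts per kilobase) but below it in control (1988 against 2434), and SLC7A11 stood above SLC38A1 in both groups.

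Other transporters of the plasma membrane moved in both directions, as did all genes tested, 21.3% rising and 21.9% falling by limma. Of 31 listed, 26 were in the table and 19 were tested, of which 5 rose, 7 fell and 7 did not pass by limma, with a median log2 fold change of -0.16. Beside SLC7A7, those that rose were the glutamate transporter SLC1A1 (119 ± 2.18 normalized counts with ACC, against 76.8 ± 2.23 in control, SD, n = 3), SLC3A1, the heavy chain of the renal cystine transporter (93.4 ± 5.17 with ACC and 68.2 ± 2.25 in control), and at few reads SLC6A14 and SLC1A2. Those that fell included SLC43A2 (LAT4), which shares substrates with SLC43A1, with 279 ± 8.31 normalized counts with ACC and 389 ± 36.1 in control (log2 fold change -0.47, limma adjusted p = 5.35e-05). SLC6A17, known as a vesicular carrier of neurons, fell by 1.65 on the log2 scale, SLC6A15 by 0.83, SLC36A4 by 0.35 and the light chain SLC7A6 by 0.19. At few reads SLC16A10 and SLC7A10 also fell. The taurine transporter SLC6A6 (8262 ± 43.7 with ACC and 8346 ± 47.9 in control) and the arginine carrier SLC7A2 (407 ± 18.6 with ACC and 402 ± 35.7 in control) did not pass (adjusted p = 0.752 and 0.863 from limma), nor did SLC1A7, SLC7A8, SLC7A9, SLC38A3 and SLC38A5, which had few reads.

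Transporters of internal membranes changed by small amounts, beside 21.3% of all genes tested that rose and 21.9% that fell by limma. Of 9 listed lysosomal transporters, 7 were tested, 1 of which rose and 3 fell, with a median log2 fold change of 0.00. SLC38A9, a lysosomal arginine sensor, rose (598 ± 43.2 normalized counts with ACC and 507 ± 29.8 in control, log2 fold change 0.24, limma adjusted p = 0.00703), MFSD12 fell by 0.41 and SLC15A4 by 0.19, and the glutamine carrier SLC38A7 had a log2 fold change of 0.00 (limma adjusted p = 0.998). Of 11 mitochondrial carriers, 2 rose and 4 fell, with a median of -0.11. The serine carrier SFXN1 fell by 0.22 and SFXN3 by 0.29 on the log2 scale, and the glycine carrier SLC25A38 rose by 0.21. When single libraries were left out, 0 to 2 mitochondrial carriers were higher and 2 to 4 lower, the counts changing most without ACC replicate 2 (1 and 2), ACC replicate 3 (0 higher) and control replicate 3 (1 and 2).

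Genes of the ATF4 pathway and of glutathione synthesis and the NRF2 response were also mostly higher with ACC. Both lists, like the transporters, were chosen with earlier results of these data known, so their likeness is not independent support. Of 23 ATF4 pathway genes outside transport, 17 rose and 4 fell, with a median log2 fold change of 0.54. Of all genes tested, 21.3% rose and 21.9% fell by limma. ATF4 itself had 11246, 11231 and 11596 normalized counts with ACC, against 7036, 6880 and 6723 in control (log2 fold change 0.72, limma adjusted p = 4.32e-12). PHGDH, the first enzyme of serine synthesis, TRIB3, a pseudokinase induced by ATF4, and STC2, a secreted glycoprotein, had log2 fold changes of 1.41, 1.34 and 1.94. Those that fell were VLDLR (log2 fold change -0.75), ATF5 (-0.19), EIF2AK4 (-0.18) and PSPH (-0.15). PPP1R15A and ATF3 did not pass (limma adjusted p = 0.66 and 0.993). Of 16 genes of glutathione synthesis and the NRF2 response, which use or accompany the cystine imported by SLC7A11, 13 rose and 0 fell, with a median of 0.31. GPX2, a glutathione peroxidase, had a log2 fold change of 1.76, and AKR1C1, an aldo-keto reductase whose paralogs can share reads, 1.33. OSGIN1, an oxidative stress gene, had 0.91. GCLC and GCLM, the subunits of the enzyme that uses cysteine to begin glutathione synthesis, rose by 0.42 and 0.27. Glutathione synthetase (GSS), TXNRD1 and HMOX1 did not pass, with log2 fold changes of 0.00, 0.02 and 0.06 (limma adjusted p = 0.998, 0.743 and 0.292).

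**Figure D4:**
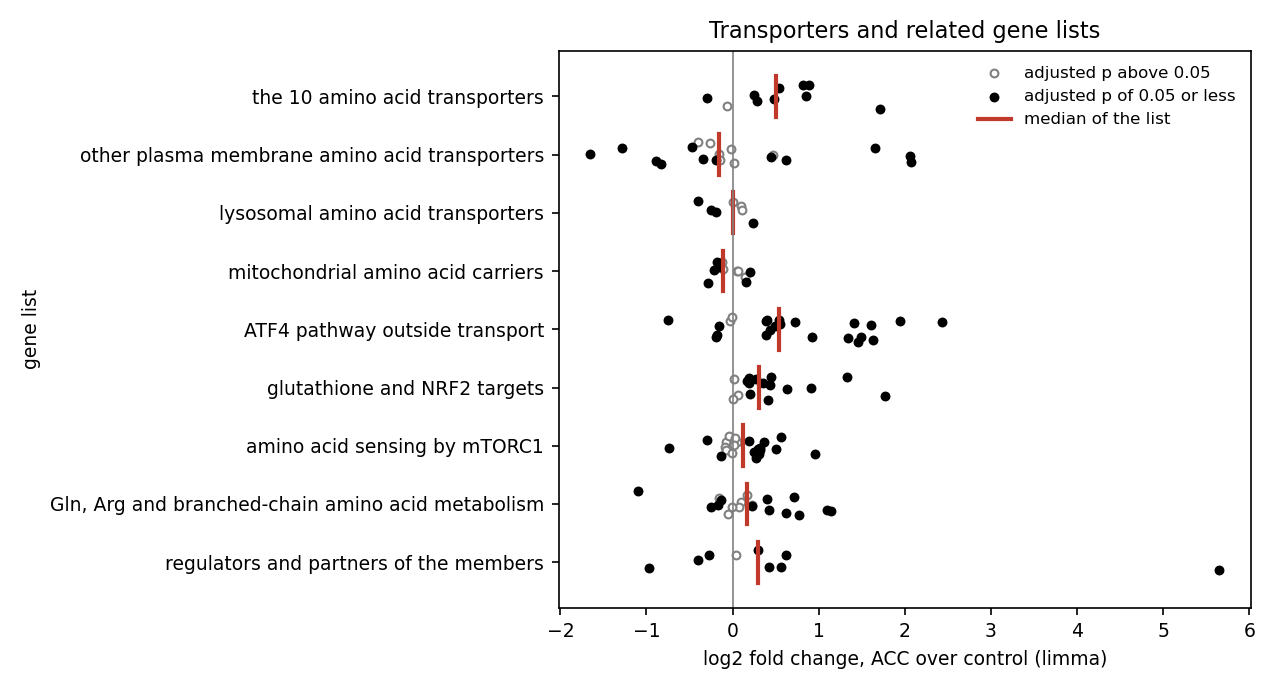
Log2 fold change, ACC over control, of each tested gene in the 10 transporters and 8 related lists from limma (filled where the adjusted p is 0.05 or less), with a red bar at the median of each list. The median is 0.51 for the 10 transporters, 0.54 for the ATF4 pathway and -0.16 for the other plasma membrane transporters.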

How the data were processed

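Poly(A) RNA-seq of 3 ACC and 3 control cultures was used, grouped by the titles in the labels. For the authors' table, reads cut with Cutadapt were aligned by STAR 2.4.2a (GRCh38), tallied over genes by htseq-count and scaled by the size factors of DESeq2. The values deposited by the authors (signal, in normalized counts, to 2 decimals) are whole multiples of 1 read in each library: 100% of values above 0 come within 0.1 of a whole read. The authors' table also holds p-values, raw and adjusted, and log2 fold changes of their own DESeq2 comparison, which were not used.

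Log2(normalized count + 1) was compared with limma 3.58.1 (mean-variance trend, R 4.3.3) for genes summing to at least 10, with Benjamini-Hochberg adjustment. Fold changes are on this scale and understate changes of low genes. Within-library ratios were compared by exact permutation. The alternatives were TMM and total-read scalings, filters, pseudocounts, edgeR 4.0.16 (adjusted p from its quasi-likelihood test) and DESeq2 1.42.0 on the recovered reads, a replicate block and leaving out each library. Between any replicates the mean chi-square per gene was at least 2.6, so no library was treated as a copy of another.

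The transporters and the related lists were chosen with earlier results of these data known. Genes named are the 10 transporters, their family members in the lists, the up to 3 list genes with the smallest adjusted p at a mean of at least 100 normalized counts, and the 2 genes most like each transporter called at 2-fold. ATF4, GCLC, GCLM, MYC and any other list gene named were added after their values were seen. Some genes that meet these rules are not reported here. Positions and lengths are from GENCODE 44 on GRCh38, and promoter windows from RefSeq.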

Additional observations from a re-analysis of the deposited data

How the results depend on the processing

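All 10 transporters kept their side of the threshold under all 16 alternatives, and all but SLC3A2 kept their direction. Leaving out single libraries gave SLC3A2 log2 fold changes of -0.1132 to 0.0122, the sign turning without control replicate 3. Counts of transporters stayed at 8 higher and 1 lower (1 and 0 at 2-fold) when single libraries were left out, while all genes gave 3498 to 3962 higher and 3646 to 3991 lower, and the related lists 56 to 62 higher and 22 to 28 lower. The adjusted p of SLC7A5 was 0.0145 with DESeq2, its highest. Leaving out single libraries gave log2 ratio differences of -0.27 to -0.21 for SLC7A5 to SLC3A2, 0.54 to 0.63 for SLC7A11 to SLC3A2, 0.75 to 0.89 for SLC7A11 to SLC7A5 and -0.29 to -0.18 for SLC38A2 to SLC38A1. For SLC1A5 to SLC1A4 it gave -0.0179 to 0.0762, the sign turning without ACC replicate 3. With union exon lengths 6 of 10 transporters kept their rank in ACC, and the SLC7A5 share of light chains differed by -5.99 percentage points in place of -8.67, an alternative chosen after seeing the data. Counts of lower genes with DESeq2 were 4 among other plasma membrane transporters, 2 among mitochondrial carriers and 1 in amino acid sensing, and with a mean of at least 30 there were 3 higher plasma membrane transporters.

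Replicate numbers did not pair the samples (correlations of same-numbered deviations -0.125, 0.079 and -0.067 over 11179 genes). With a replicate block 8 transporters were higher and 1 lower, and 4011 genes of all tested were higher and 4141 lower.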

Other observations

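Enzymes that use the transported amino acids changed in both directions, 8 of 19 rising and 4 falling by limma, with a median log2 fold change of 0.17. Of all genes tested, 21.3% rose and 21.9% fell. GLUL, which makes glutamine from glutamate, had 1384, 1340 and 1432 normalized counts with ACC, against 668, 613 and 595 in control (log2 fold change 1.15, limma adjusted p = 4.74e-12). ASS1, an enzyme of arginine synthesis, had a log2 fold change of 1.09. Both genes separated the groups. Of 22 genes by which mTORC1 senses amino acids, 11 rose and 3 fell, with a median of 0.12, and FLCN, the Rag GTPase RRAGD and FNIP2, a partner of FLCN, had log2 fold changes of 0.56, 0.95 and 0.50. The count of lower genes in that list was 1 without ACC replicate 1, ACC replicate 2 or control replicate 3.

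Of 9 tested regulators and partners of the transporters, 5 rose and 3 fell, with a median of 0.30. The shares over all genes tested were 21.3% higher and 21.9% lower. NEDD4L, a ubiquitin ligase, had a log2 fold change of 0.56, ARRDC3, an arrestin-domain adaptor, -0.97, MYC -0.27, and TXNIP 5.65. The size of the TXNIP change rests on few control counts. TXNIP had 14.46, 5.33 and 11.4 normalized counts in control, against 478.9, 564.4 and 567.7 with ACC. Over the 6 libraries, the genes most like SLC43A1 were POFUT1 and ATF2 (Pearson r = 0.998 for both), but 1489 of 11178 genes had an r above 0.95, since the 6 libraries form 2 groups.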
